A study of Mus musculus with 12 samples.

Results

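The collagen genes of the mouse were followed through RNA-seq of the whole cortex at postnatal day 16. Members were all rows whose symbol has the form of a collagen alpha chain, Col followed by the collagen number and the chain number. The rule found 44 genes, each with 1 row, among 23548 rows, and 31 of the 44 had a mean of at least 0.5 FPKM over all libraries and were tested. FPKM counts sequenced fragments relative to the length of the transcript and the total fragments of the library, so that levels can be compared between genes per length. The study removed a DNA methyltransferase from the oligodendrocyte lineage with a cre allele at the Olig1 locus, and each of the 4 groups held 3 mice on a C57BL/6 background. Dnmt1 Control mice were Olig1+/+;Dnmt1flox/flox, Dnmt1 CKO mice (conditional knockout) were Olig1cre/+;Dnmt1flox/flox, Dnmt3a Control mice were Olig1+/+;Dnmt3aflox/flox and Dnmt3a CKO mice were Olig1cre/+;Dnmt3aflox/flox. The controls thus carried the same floxed alleles as the knockouts and lacked the cre allele. Cre from the Olig1 locus acts in the oligodendrocyte lineage, while collagens of the brain are made largely by other cells, and the RNA came from all cells of the cortex together.

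Collagens are secreted proteins whose chains wind around one another in a helix. Fibrillar collagens (types I, II, III, V, XI, XXIV and XXVII) form fibers, and type IV forms the sheet of the basement membrane around vessels and under the pia. Type VI forms beaded filaments, fibril-associated collagens such as type IX sit on the surface of fibers, and types XIII, XVII, XXIII and XXV span the cell membrane. In the brain the interstitial collagens are made mainly by fibroblasts of the leptomeninges and around vessels, and type IV by endothelium and pericytes. In bulk cortex, fewer cells of a type and less RNA per cell cannot be told apart.

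Some libraries stood apart before any collagen was considered. Dnmt1 measured 10.6, 10.2 and 9.78 FPKM in Dnmt1 Control and 7.26, 9.11 and 9.09 FPKM in Dnmt1 CKO. Dnmt3a measured 31.1, 16.9 and 28.7 FPKM in Dnmt3a Control and 13.6, 14.2 and 15.4 FPKM in Dnmt3a CKO, so the library labelled Dnmt3a Control replicate 2 was close to the knockouts, and results of that line are given with and without it. The 8 choroid plexus markers summed to 6.30 FPKM in Dnmt3a Control replicate 3 and 3.29 FPKM in Dnmt3a CKO replicate 3, against 85.2 to 422 FPKM in the other libraries. Xist measured 46.2 to 49.4 FPKM in Dnmt1 Control replicate 3, Dnmt3a Control replicate 3 and Dnmt3a CKO replicate 3, and at most 1.85 FPKM elsewhere. Among the markers of the labelled tissue, 8 cortical neuron genes summed to 1442 to 1608 FPKM in every library. The 7 myelin markers, which oligodendrocytes make, summed to 1317 to 1553 FPKM in Dnmt1 Control and to 392.6 to 464.6 FPKM in Dnmt1 CKO.

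The family spanned a wide range of levels, from 16.95 FPKM for Col6a1 to 0.099 FPKM for Col17a1 (means over 12 libraries), and no member was listed at 0 in any library. The 3 highest members, Col6a1, Col4a1 and Col4a2, held 35.2% of the summed collagen FPKM, and the 10 highest held 68.0%. Col6a1, a chain of the beaded filament collagen VI, ranged from 14.5 to 19.7 FPKM with a median of 17.2. The basement membrane chains Col4a1 and Col4a2 had means of 15.7 ± 1.58 and 12.9 ± 0.98 FPKM (SD, n = 12). Col6a1 lay above Col4a1 in 9 of 12 libraries only, while Col4a1 lay above Col4a2 in all 12. Next came Col9a3 at 10.9 ± 1.23 FPKM, a fibril-associated chain, whose lowest library was above every library of the following gene. Reads of Col9a3 carry an uncertainty, since 6.07% of its exon bases overlap Tcfl5 on the opposite strand and 4.87% of its words of 50 bases recur in other genes. Col25a1, a transmembrane collagen, and Col1a2, a chain of collagen I, followed at 7.18 and 6.86 FPKM, and their ranges overlapped. From Col6a2 at 4.57 FPKM, through Col26a1, Col11a2 and Col19a1, down to Col1a1 at 3.34 FPKM, each gene's range overlapped that of its neighbour.

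**Figure D1:**
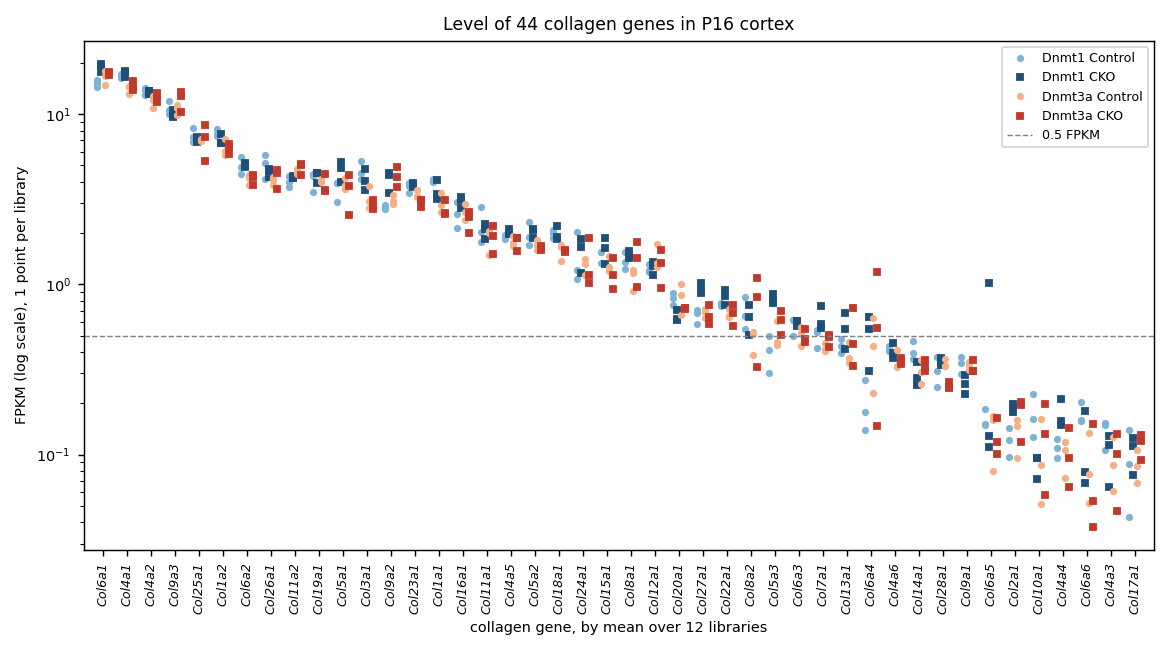
FPKM of the 44 collagen genes (log axis), in order of the mean, with 1 point per library and a color for each of the 4 groups. The dashed line marks 0.5 FPKM, the least mean for a test, and the single high points at Col6a4 and Col6a5 are libraries at 1.19 and 1.02 FPKM.

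Chains that assemble together differed in level. Within each library Col4a1 was 1.10 to 1.29 times Col4a2, and Col1a2 was 1.86 to 2.48 times Col1a1. Col4a1 and Col4a2 lie head to head on chromosome 8, their annotated starts lie 21 bases apart, and the genes overlap there. The other chains of the basement membrane were far lower, with Col4a5 at 1.87, Col4a6 at 0.38, Col4a4 at 0.12 and Col4a3 at 0.11 FPKM. These also sit as head-to-head pairs, with Col4a3 and Col4a4 starting 72 bases apart and Col4a5 and Col4a6 1309 bases apart, yet Col4a5 was 4.09 to 5.81 times Col4a6 in every library. In collagen VI the chains were unequal too: Col6a1 was 2.84 to 4.59 times Col6a2, and Col6a2 was 6.74 to 10.04 times Col6a3. Col9a1, a partner of Col9a2 and Col9a3 in collagen IX, was near the bottom of the family at 0.32 FPKM.

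Comparison of Dnmt1 CKO with Dnmt1 Control asked which collagens changed when the maintenance methyltransferase was removed from the oligodendrocyte lineage. All CKO mice also carried cre in an Olig1 allele, and its effect cannot be told apart from that of the deletion. Olig1 itself differed by -1.19 on the log2 scale in Dnmt1 CKO (adjusted p = 0.0043 in limma). In Dnmt3a CKO it differed by -0.49 (adjusted p = 0.66 in limma). Col5a3, Col6a1 and Col27a1 were higher in Dnmt1 CKO at 10% FDR (limma on log2(FPKM + 0.1), adjusted over all 14115 rows), and no collagen was lower. That is 3 of 31 tested members, where 3.15% of all rows passed, and 0.85% passed as higher.

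Col5a3, a minor fibrillar chain of collagen V, measured 0.303, 0.413 and 0.497 FPKM in Dnmt1 Control and 0.878, 0.780 and 0.807 FPKM in Dnmt1 CKO. Every CKO library was above every control library, and the log2 difference was 0.89 ± 0.15 (SE, n = 3 against 3, adjusted p = 0.054, 95% interval 0.52 to 1.26). The gene spans 20770050 to 20815067 on chromosome 9 (GRCm38, minus strand), 92.1 kb from Dnmt1 itself. Of 33 symbols tested within 500 kb of Dnmt1, Col5a3 was the only one called higher, while S1pr5 and Dnm2 were called lower. These are 3 of 33, where 3.15% of all rows were called and 0.85% were called as higher. The relation of this position to the Col5a3 values was not tested.

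Col6a1 measured 15.2, 14.5 and 15.9 FPKM in Dnmt1 Control and 19.7, 17.7 and 19.1 FPKM in Dnmt1 CKO. These groups did not overlap either, with a log2 difference of 0.31 ± 0.05 (SE, adjusted p = 0.062, 95% interval 0.18 to 0.44). For its partners no shift was seen beyond the spread: Col6a2 went from 4.97 ± 0.58 to 5.01 ± 0.15 FPKM (SD, n = 3; log2 difference 0.02, 95% interval -0.21 to 0.24), and Col6a3 differed by 0.05 (-0.18 to 0.27). The ratio of Col6a1 to Col6a2 was 2.84 to 3.41 in the controls and 3.54 to 4.06 in the knockouts. In the Dnmt3a line the same ratio was 3.88 to 4.07 in controls and 3.95 to 4.59 in knockouts, so that the Dnmt1 Control group held the lowest ratios of the 4. The 2 genes lie on the same strand of chromosome 10 with 85.2 kb between them.

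Col27a1, a fibrillar collagen best known from cartilage, measured 0.710, 0.587 and 0.676 FPKM in Dnmt1 Control and 0.943, 0.890 and 1.02 FPKM in Dnmt1 CKO. All CKO values were above all control values, and the log2 difference was 0.47 ± 0.09 (SE, adjusted p = 0.077, 95% interval 0.25 to 0.69).

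These 3 calls rested on few libraries. The number of members that passed was 1, 0 and 2 without Dnmt1 Control replicate 1, 2 or 3, and 1, 1 and 0 without Dnmt1 CKO replicate 1, 2 or 3, and it was 0 with no filter on low rows or at 5% FDR. Without Dnmt1 CKO replicate 1 the member that passed was Col9a2, which did not pass in the full comparison. Col5a3 and Col6a1 were the members that passed without Dnmt1 Control replicate 3, the one library of that line with high Xist. Over the alternatives the adjusted p ran from 0.03 to 0.20 for Col5a3, from 0.024 to 0.22 for Col6a1 and from 0.062 to 0.22 for Col27a1, while the log2 difference stayed above 0 in each.

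**Figure D2:**
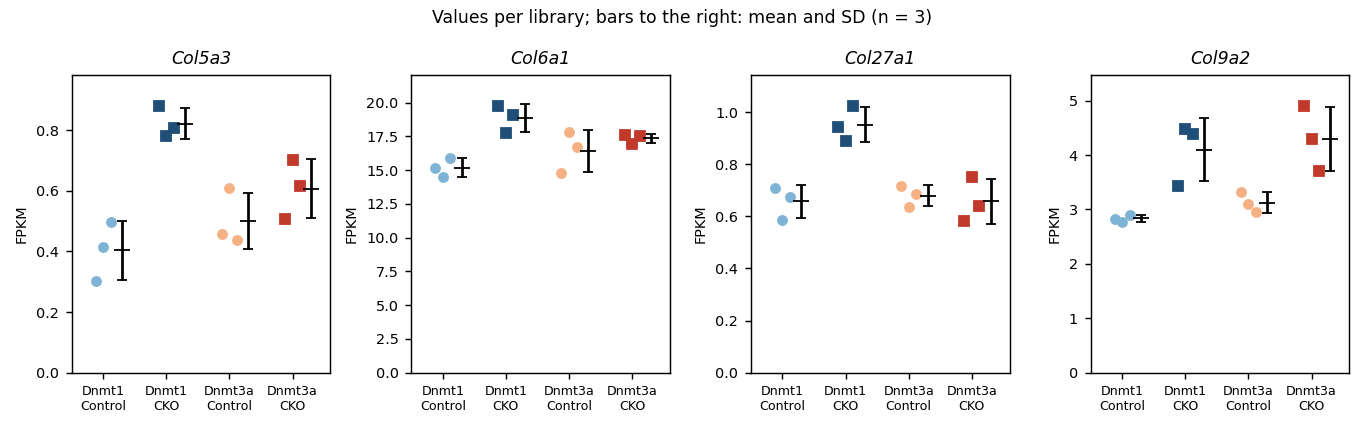
FPKM of Col5a3, Col6a1, Col27a1 and Col9a2 in each library of the 4 groups, with the mean and SD of 3 libraries beside the points. The Dnmt1 CKO points lie above the Dnmt1 Control points in all 4 panels, and in the Dnmt3a line this holds for Col9a2 alone.

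Because the deleted enzyme methylates cytosine in CpG, the sequence just before the start of the called genes is shown, 5′ to 3′ on the strand of the gene, with each CG in capitals. The sequences are from RefSeq (GRCm38.p6), at chr9:20815068-20815317 (minus strand) for Col5a3, chr4:63215162-63215411 (plus strand) for Col27a1 and chr10:76726169-76726294 (minus strand) for Col6a1, the last without the bases annotated as untranslated exon. The Col27a1 stretch lies inside the gene as GENCODE M21 annotates it (63214004 to 63334991 on chromosome 4), since a longer annotated transcript starts further upstream.
Col5a3: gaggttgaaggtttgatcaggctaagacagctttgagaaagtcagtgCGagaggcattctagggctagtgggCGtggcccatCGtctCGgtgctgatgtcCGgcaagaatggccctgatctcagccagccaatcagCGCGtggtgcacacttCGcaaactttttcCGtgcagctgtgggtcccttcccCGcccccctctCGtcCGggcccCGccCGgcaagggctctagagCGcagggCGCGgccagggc
Col27a1: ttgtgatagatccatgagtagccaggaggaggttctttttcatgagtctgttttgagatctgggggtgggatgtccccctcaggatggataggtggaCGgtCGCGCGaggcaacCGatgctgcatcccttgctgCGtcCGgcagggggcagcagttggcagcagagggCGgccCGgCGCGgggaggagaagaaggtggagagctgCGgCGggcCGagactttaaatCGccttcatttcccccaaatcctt
Col6a1: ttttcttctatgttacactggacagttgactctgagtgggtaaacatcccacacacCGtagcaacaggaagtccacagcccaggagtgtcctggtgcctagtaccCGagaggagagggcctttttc

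The 250 bases before the RefSeq start held 17 CpG for Col5a3 and 15 for Col27a1, more than 76.5% and 72.7% of 32851 mouse promoters. The full 250 bases for Col6a1 held 3 CpG, more than 29% of the promoters. The Col6a1 stretch shown is shorter, 126 bases with 2 CpG. The table of promoters covered 35 of the 44 collagen genes with 38 promoters, whose median was 9.5 CpG against 6 for all promoters. For some genes, Col6a1 and Col9a2 among them, part of the window counted here lies inside the gene as GENCODE M21 annotates it. The letters GGGCGG, the core of an Sp1 motif, were found on either strand in 57.9% of the collagen promoters and 32.7% of all, TATAAA in 13.2% and 12.4%, and CCAAT in 34.2% and 33.8%. These matches describe the letters of the sequence, and methylation was not measured in these files.

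Among the other collagens of the Dnmt1 line no change passed the threshold. Of the 31 tested members 20 were higher and 11 lower in Dnmt1 CKO, with a median log2 difference of 0.05, against a median of -0.02 over all rows, of which 41.1% were higher. Values did not overlap between the groups for 8 of the 31 (25.8%), against 20.8% of all rows. In these 8, Col5a1, Col9a2, Col4a5 and Col7a1 were higher beside the 3 called genes, and Col20a1, a fibril-associated collagen, was lower at 0.753, 0.827 and 0.892 FPKM in controls and 0.623, 0.615 and 0.710 FPKM in knockouts (log2 difference -0.30, adjusted p = 0.21). Col5a1, the main partner chain of Col5a3, measured 3.05, 3.93 and 3.92 FPKM in controls and 5.25, 3.97 and 4.80 FPKM in knockouts. The gap between these groups was narrow, and the log2 difference was 0.36 ± 0.14 (SE, adjusted p = 0.33).

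Of the 10 tested fibrillar collagens 6 were higher and 4 lower in Dnmt1 CKO, with a median log2 difference of 0.07. The chains of collagens I and III were among the lower ones, without passing. Col1a1 measured 3.98, 4.02 and 4.16 FPKM in Dnmt1 Control and 3.17, 4.07 and 3.41 FPKM in Dnmt1 CKO (log2 difference -0.19, 95% interval -0.43 to 0.05). One knockout library lay inside the range of the controls. Col1a2 differed by -0.13 (-0.30 to 0.04) and Col3a1, the chain of collagen III, by -0.17 (-0.50 to 0.15). The basement membrane chains Col4a1 and Col4a2 differed by 0.05 (-0.06 to 0.15) and -0.01 (-0.12 to 0.10), the narrowest intervals in the family. In the same libraries all 8 endothelial markers (median log2 difference -0.25) and all 8 markers of pericytes and smooth muscle (median -0.13) were lower in Dnmt1 CKO, with Rgs5 and Acta2 past the threshold. The endothelial sum was 63.5 to 69.3 FPKM in controls and 53.3 to 60.1 FPKM in knockouts, the pericyte sum was 46.2 to 49.9 and 37.5 to 40.3 FPKM, and no marker of either list was at 0 in all libraries. All 8 markers of oligodendrocyte progenitors were lower too (median -0.26, 4 called). Of 8 astrocyte and 8 microglia markers, 1 each was called higher, where 3.15% of all rows were called and 0.85% as higher. The part of these cell types in the collagen values was not tested.

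**Figure D3:**
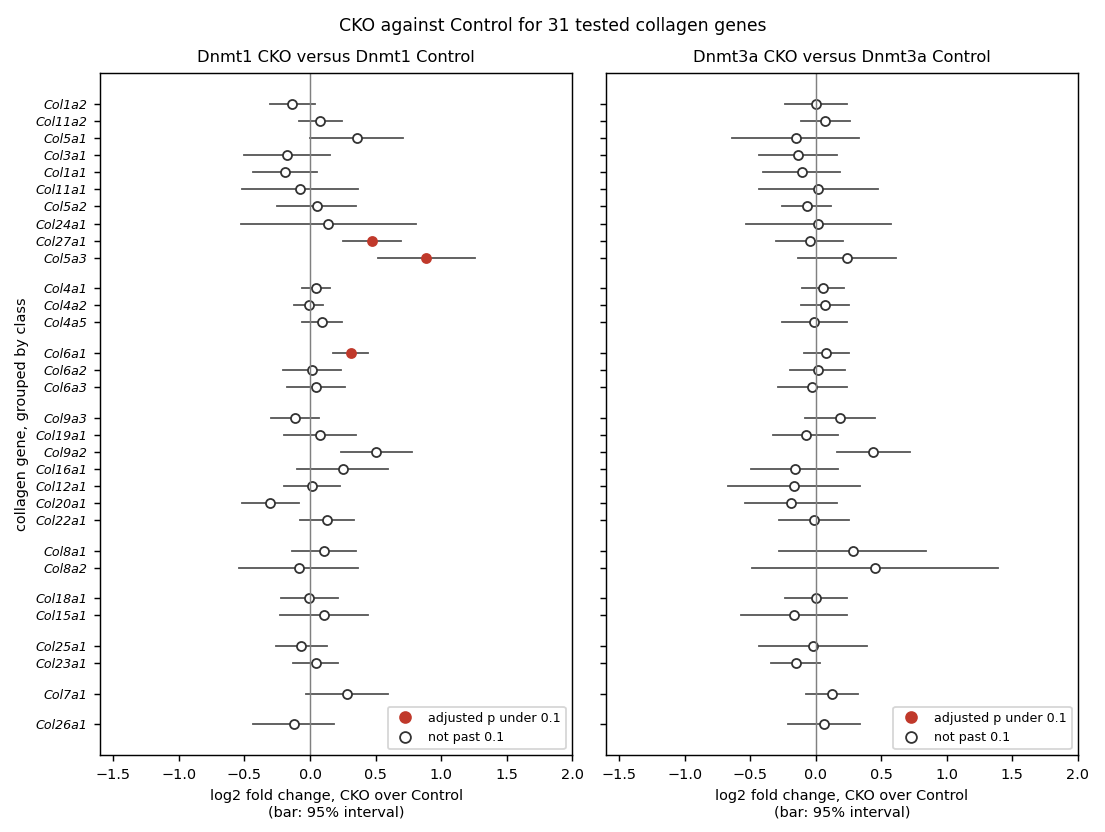
Log2 fold change of CKO over Control for the 31 tested collagen genes, grouped by class, in the Dnmt1 line (left) and the Dnmt3a line (right), with 95% intervals of limma's test. Filled points passed 10% FDR and are Col27a1, Col5a3 and Col6a1 of the Dnmt1 line.

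In the Dnmt3a line, which lost a de novo methyltransferase, no collagen gene passed. Only 2 of all 14115 rows did (0.0142%), and 1 of the 31 members had an unadjusted p under 0.05 in limma, against 1037 of all rows. The members were evenly split, 15 higher and 16 lower, with a median log2 difference of -0.0004 against 0.007 over all rows. Values did not overlap for 2 of 31 members (6.45%), against 12.8% of all rows. These were Col9a2, described next, and Col23a1, a transmembrane collagen, at 3.24, 3.59 and 3.29 FPKM in controls and 3.12, 3.12 and 2.83 FPKM in knockouts (log2 difference -0.15, 95% interval -0.34 to 0.03). The genes called in the Dnmt1 line differed here by 0.08 (-0.09 to 0.26) for Col6a1, -0.05 (-0.30 to 0.21) for Col27a1 and 0.24 (-0.14 to 0.61) for Col5a3. Without the library labelled Dnmt3a Control replicate 2, no member passed. Col9a2 and Col5a3 were the 2 with an unadjusted p under 0.05 in limma, against 973 of all rows. The genes called in the Dnmt1 line then differed by 0.14 for Col6a1 (adjusted p = 0.72), -0.09 for Col27a1 (adjusted p = 0.89) and 0.36 for Col5a3 (adjusted p = 0.72). Without both libraries low in choroid plexus markers, again no member passed, and 5 had an unadjusted p under 0.05 in limma, against 1323 of all rows.

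Col9a2, a chain of the fibril-associated collagen IX, was the one member whose knockout libraries all lay above the controls in both lines. Values did not overlap, in either direction, for 20.8% of all rows in the Dnmt1 line and 12.8% in the Dnmt3a line. The share of all rows that did so in both lines was not counted. The 2 control groups of Col9a2 did not overlap either, at 2.78 to 2.91 FPKM in Dnmt1 Control and 2.94 to 3.33 FPKM in Dnmt3a Control. Both CKO groups share the cre allele at Olig1, and its part in the Col9a2 values was not tested. Col9a2 measured 2.83, 2.78 and 2.91 FPKM in Dnmt1 Control against 3.43, 4.48 and 4.39 FPKM in Dnmt1 CKO (log2 difference 0.51 ± 0.11, adjusted p = 0.12). In the other line it measured 3.33, 3.10 and 2.94 FPKM in Dnmt3a Control against 4.89, 4.29 and 3.71 FPKM in Dnmt3a CKO (0.44 ± 0.11, adjusted p = 0.66). Neither line passed alone as fitted here, while in the Dnmt1 line Col9a2 passed in 5 of 17 alternatives (adjusted p from 0.033 to 0.32 over the 17). The average effect over both lines, a comparison added after these values were seen, was 0.47 ± 0.08 (SE, 6 CKO against 6 control libraries, adjusted p = 0.011), where 2.52% of all rows passed. It passed in each of 23 alternatives, with adjusted p from 0.0045 to 0.041, including the fit without Dnmt3a Control replicate 2 (0.47, adjusted p = 0.035). These alternatives reuse the same libraries, and the adjustment does not cover the choice of this comparison. Col6a1 (0.20, adjusted p = 0.078) and Col5a3 (0.56, adjusted p = 0.087) passed for the average too. Col6a1 passed in 10 of 23 alternatives and Col5a3 in 11 of 22, each in 3 of the 13 fits with libraries left out, and neither passed with the replicate number as a block or at 5% FDR.

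For the partner Col9a3 no difference passed in either line. It was 10.8 ± 1.02 and 9.98 ± 0.46 FPKM in Dnmt1 Control and CKO, and 10.7 ± 0.76 and 12.2 ± 1.63 FPKM in Dnmt3a Control and CKO (SD, n = 3). Without the 2 libraries low in choroid plexus markers, Col9a3 was higher in Dnmt3a CKO by 0.24 ± 0.05 on the log2 scale (SE, adjusted p = 0.52), and the Dnmt1 effect minus the Dnmt3a effect was -0.355 (adjusted p = 0.23). The ratio of Col9a3 to Col9a2 was 4.24, 3.61 and 3.62 in Dnmt1 Control and 2.85, 2.35 and 2.20 in Dnmt1 CKO. It was 3.40, 3.49 and 3.34 in Dnmt3a Control and 2.61, 3.13 and 2.79 in Dnmt3a CKO. The knockout ratios were below the control ratios in each line without overlap. Col9a2, chosen for its non-overlapping values, is the denominator, so this is not a separate result. With 3 against 3 mice an exact permutation test within a line cannot give a p under 0.1. Col9a1 was under the level for a test, at 0.298 to 0.373 FPKM in Dnmt1 Control and 0.228 to 0.293 FPKM in Dnmt1 CKO.

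**Figure D4:**
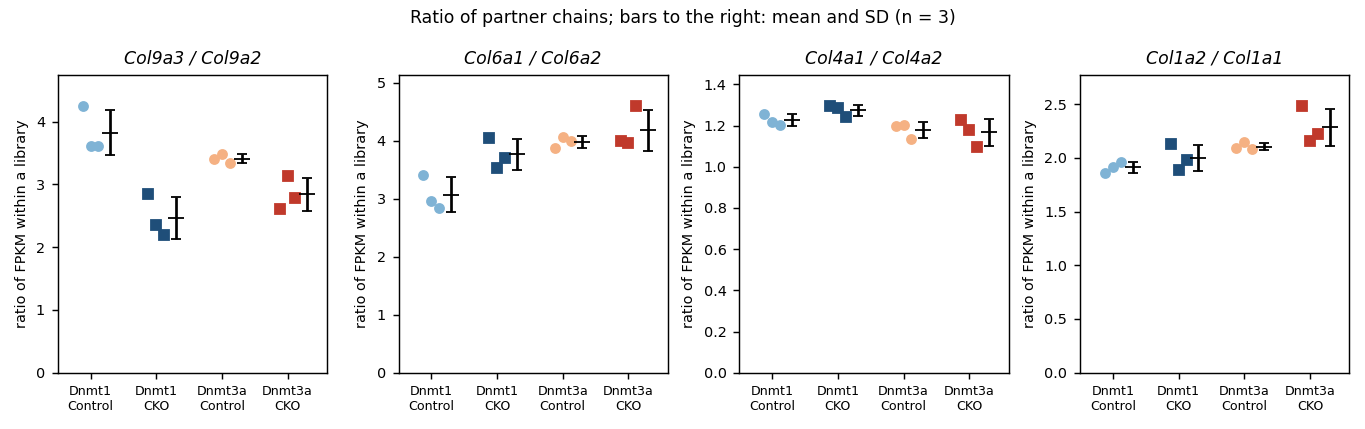
Ratio of the FPKM of partner chains within each library, for Col9a3 over Col9a2, Col6a1 over Col6a2, Col4a1 over Col4a2 and Col1a2 over Col1a1, with the mean and SD of 3 libraries beside the points. The CKO points of the first panel, at 2.20 to 3.13, lie below all 6 control points, at 3.34 to 4.24.

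Whether the knockouts acted differently on collagens in the 2 lines was tested as the difference of the CKO effects over all 12 libraries. No member passed, while 2.13% of all rows did. Of all rows 10.6% had an unadjusted p under 0.05 in limma, as had 3 of 31 members (9.68%). These 3 members were the genes called in the Dnmt1 line, whose libraries also enter this test, so the 2 results are not independent. Col27a1 had a difference of 0.52 on the log2 scale (95% interval 0.10 to 0.94, adjusted p = 0.33). The difference was 0.65 for Col5a3 (0.04 to 1.26, adjusted p = 0.44) and 0.23 for Col6a1 (0.02 to 0.44, adjusted p = 0.41). For Col9a2 the difference was 0.07 (-0.28 to 0.41). Without the library labelled Dnmt3a Control replicate 2, Col27a1 (0.56) was the 1 member with an unadjusted p under 0.05 in limma, against 1393 of all 14115 rows. Col5a3 then differed by 0.53 (adjusted p = 0.57) and Col6a1 by 0.17 (adjusted p = 0.59). A change of Col27a1, Col5a3 or Col6a1 limited to the Dnmt1 line was thus not shown.

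The 2 control groups differ in their floxed gene, and their comparison gives the spread between lines without cre. No row passed 10% FDR (0%), while 1154 of all rows (8.18%) and 9 of the 31 tested collagens (29.0%) had an unadjusted p under 0.05 in limma. Of the 31 members 22 were lower in Dnmt3a Control, with a median log2 difference of -0.16 against -0.02 over all rows. Values did not overlap for 12 of 31 members (38.7%), against 12.6% of all rows, and 10 of the 12 were lower in Dnmt3a Control.

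The lower members included chains of collagens I, III, IV, VI and XVIII. Col4a1 measured 16.3, 16.7 and 17.2 FPKM in Dnmt1 Control and 14.4, 13.1 and 14.6 FPKM in Dnmt3a Control, a log2 difference of -0.25 ± 0.06 (SE, adjusted p = 0.38). Col3a1 measured 4.15, 4.54 and 5.29 FPKM against 3.08, 2.82 and 3.78 FPKM, a difference of -0.52 ± 0.13 (adjusted p = 0.38). Neither pair of groups overlapped, and the same held for Col1a1 (-0.43), Col1a2 (-0.30), Col18a1 (-0.32), Col4a2 (-0.20) and Col6a2 (-0.26). Col11a2, a fibrillar chain, was the one member with an unadjusted p under 0.05 that was higher in Dnmt3a Control (0.19). Without the library labelled Dnmt3a Control replicate 2, 9 members had an unadjusted p under 0.05 in limma, against 877 of all rows. Col23a1 was then in place of Col4a2, and the median of the members was -0.13. Marker lists moved in the same libraries: 11 of 12 leptomeningeal markers were lower in Dnmt3a Control (median -0.15), as were all 8 of pericytes and smooth muscle (-0.20), 7 of 8 of endothelium (-0.11) and the 5 tested of choroid plexus (-0.98), while all 7 myelin markers were higher (0.34). The endothelial sum was 58.0 to 61.1 FPKM and the pericyte sum 39.3 to 43.0 FPKM in Dnmt3a Control. No marker of these lists passed the threshold, their part in the collagen values was not tested, and the line cannot be told apart from anything else that differed between the 2 sets of mice.

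Levels of the type I and III chains varied between libraries together with leptomeningeal markers once 1 gene was set aside. The summed FPKM of Col1a1, Col1a2 and Col3a1 ran from 11.2 FPKM in Dnmt3a Control replicate 2 to 17.6 FPKM in Dnmt1 Control replicate 3. Against the sum of all 12 leptomeningeal markers, 335.3 to 500.6 FPKM, Pearson's r of the log2 values was 0.47 (permutation p = 0.12, two-sided, n = 12) and Spearman's rho 0.36 (permutation p = 0.25), and r was 0.31 without the 2 libraries farthest from the median. That sum was mostly Ptgds, a prostaglandin synthase also made by oligodendrocytes, at 307.9 to 461 FPKM. For the other 11 markers, which summed to 27.4 to 44.4 FPKM, r was 0.88 (permutation p = 0.0001) and rho 0.91 (permutation p = 0.0001), and r was 0.86 without the 2 libraries farthest from the median. These permutations over 12 libraries did not keep the groups apart, so differences between groups enter their p. Within the Dnmt1 line r was 0.82 (exact permutation p = 0.042, n = 6) and within the Dnmt3a line 0.83 (exact permutation p = 0.051, n = 6). There rho was 0.943 (exact permutation p = 0.017) in the Dnmt1 line and 0.714 (exact permutation p = 0.14) in the Dnmt3a line.

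Col8a2, a short-chain collagen that forms hexagonal networks, moved with choroid plexus markers. In the libraries lowest in choroid plexus markers it was at 0.325 and 0.386 FPKM, below its 0.503 to 1.09 FPKM in the other 10. Such a gap was not particular to Col8a2. Col8a1 was at 0.92 to 0.96 FPKM in the 2 low libraries and at 1.16 to 1.78 FPKM in the other 10. Col4a5 was at 1.57 to 1.67 FPKM against 1.75 to 2.1 FPKM. Col12a1 lay the other way, at 1.58 to 1.73 FPKM against 0.95 to 1.35 FPKM. Within those 10, Pearson's r between the log2 level of Col8a2 and the log2 choroid plexus sum was 0.97 (permutation p = 1e-05, the smallest that the resampling can give) and rho was 0.96. The Benjamini-Hochberg adjusted p was 0.00031 over the 31 tested collagens, a set of relations added after the libraries had been seen, and r was 0.96 without the 2 libraries farthest from the median. In the Dnmt1 line alone r was 0.94 (exact permutation p = 0.0056, n = 6), and the Dnmt3a line without its 2 low libraries was too small for a value of its own. No other member passed this adjustment: Col9a3 (r = 0.68), Col19a1 (-0.66), Col8a1 (0.64) and Col25a1 (0.63) had adjusted p = 0.31. For Col8a1, the other short-chain collagen, r was 0.96 without the 2 libraries farthest from the median. Over the 10 libraries its rho was 0.515 (permutation p = 0.135). In the Dnmt1 line alone its r was 0.165 (exact permutation p = 0.75, n = 6). With the 2 low libraries kept, r of Col8a1 in the Dnmt3a line was 0.908 (exact permutation p = 0.0097, n = 6). That of Col8a2 was 0.903 there (exact permutation p = 0.019, n = 6). Col8a2 differed between Dnmt3a CKO and Control by 0.45 on the log2 scale with a 95% interval of -0.49 to 1.39, and by 0.78 without the 2 low libraries (adjusted p = 0.52).

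**Figure D5:**
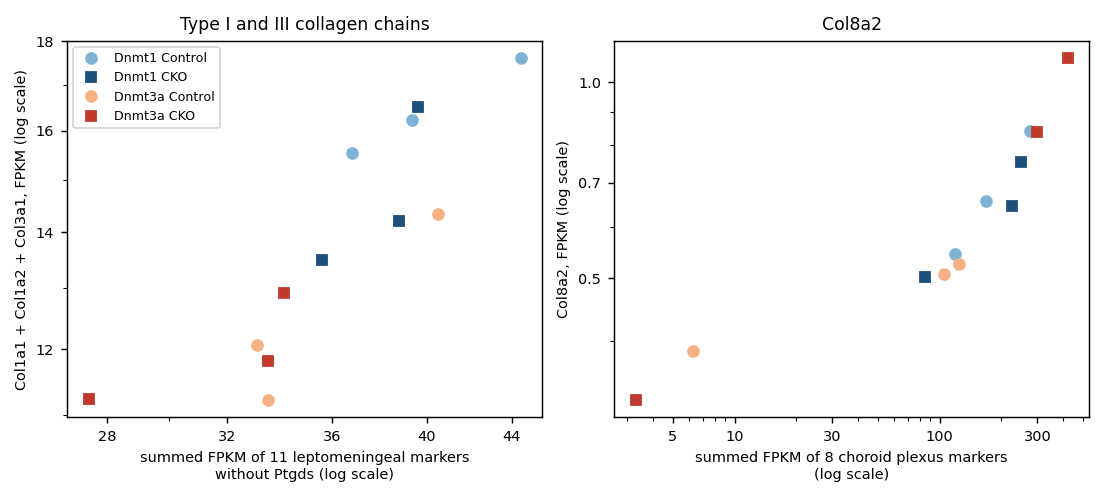
Left, summed FPKM of Col1a1, Col1a2 and Col3a1 against the sum of 11 leptomeningeal markers without Ptgds. Right, Col8a2 against the sum of 8 choroid plexus markers. All axes are logarithmic with 1 point per library, and the 2 points at the far left of the right panel are Dnmt3a Control replicate 3 (6.30 FPKM) and Dnmt3a CKO replicate 3 (3.29 FPKM).

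Genes that build, bind and degrade collagen were followed on 6 lists of 81 genes, of which 71 were tested. In Dnmt1 CKO 3 of the 71 were called, all lower, against 3.15% of all rows. In the Dnmt3a line none was, against 0.0142%, and 1 had an unadjusted p under 0.05 in limma, against 7.35% of all rows. Ddr1, a collagen receptor tyrosine kinase made by oligodendrocytes among other cells, measured 17.9, 17 and 16.6 FPKM in Dnmt1 Control and 11.6, 11.7 and 10.99 FPKM in Dnmt1 CKO, a log2 difference of -0.58 ± 0.04 (SE, adjusted p = 0.0033). The Dnmt1 CKO libraries were the lowest of all 12, since Ddr1 was 17.3 to 20.3 FPKM in the Dnmt3a line. Mmp15, a membrane-bound metalloproteinase, fell by 0.57 ± 0.10 (adjusted p = 0.062), from 5.60 ± 0.60 to 3.73 ± 0.30 FPKM. Eln, which encodes elastin of elastic fibers, fell by 0.39 ± 0.05 (adjusted p = 0.027), from 15.4 ± 0.43 to 11.7 ± 0.72 FPKM (SD, n = 3).

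The machinery inside the cell that hydroxylates and folds collagen was not called in either line. All 19 of these genes were tested, among them the prolyl hydroxylases, lysyl hydroxylases and the collagen chaperone Serpinh1. In Dnmt1 CKO 6 were higher and 13 lower, with a median log2 difference of -0.04. Of the 19, 3 had an unadjusted p under 0.05 in limma, against 15.0% of all rows. In the Dnmt3a line 9 were higher and 10 lower, and none had an unadjusted p under 0.05. Of the 10 tested genes for processing and cross-linking, 5 were higher and 5 lower in Dnmt1 CKO. Among the 14 laminins, nidogens and other partners of collagen IV in the basement membrane, 11 were lower in Dnmt1 CKO (median -0.14, none called, 4 with an unadjusted p under 0.05 in limma), beside the nearly equal Col4a1 and Col4a2.

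The 13 members below 0.5 FPKM were left out of the comparisons above. With a minimum mean of 0.1 FPKM 43 members were tested, and the 2 that passed in the Dnmt1 line were Col5a3 and Col6a1. An unadjusted p under 0.05 in limma was found for 11 of the 43, against 2408 of 16405 rows. With no filter all 44 were tested and 0 passed in the Dnmt1 line. Again 11 had an unadjusted p under 0.05 in limma, against 2760 of 23548 rows. In the Dnmt3a line 0 passed and 2 had an unadjusted p under 0.05 in limma, with either filter. Of all rows 1182 of 16405 and 1495 of 23548 did so in that line. Col6a4 was the most variable, from 0.139 FPKM in Dnmt1 Control replicate 1 to 1.19 FPKM in Dnmt3a CKO replicate 3. Col6a5 measured 1.02 FPKM in Dnmt1 CKO replicate 3 and 0.080 to 0.185 FPKM in the other 11 libraries. Of the 12 members with a mean of 0.1 to 0.5 FPKM, 6 did not overlap between the groups of the Dnmt1 line, against 17.7% of all 2290 rows in that range. Col2a1, Col4a4 and Col6a4 were the higher ones and Col9a1, Col10a1 and Col14a1 the lower ones. For the Dnmt3a line 1 of the 12, Col28a1, did not overlap and was lower, against 10.7% of the rows. This comparison with rows of like level was added after the values were seen. Col2a1, the main collagen of cartilage, stood at 0.097, 0.143 and 0.122 FPKM in Dnmt1 Control and at 0.179, 0.198 and 0.188 FPKM in Dnmt1 CKO, and the number of fragments behind such low levels is not known.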

How the data were processed

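Cortex RNA of 12 mice was sequenced from poly(A) libraries. TopHat was used by the authors for alignment (mm10) and Cufflinks for quantification, and the deposited table holds FPKM values per gene symbol. Tool versions are not given in the sources used here. Counts were not used here, so depth is known only relative to the deepest library (0.887 to 1, from the steps between low values), and precision rests on 3 mice per group. Exact duplicates (302 rows) were removed. Rows whose mean reached 0.5 FPKM were tested on log2(FPKM + 0.1), which understates changes of low genes, with limma 3.58.1 in R 4.3.3 (eBayes with trend), Benjamini-Hochberg adjustment over 14115 rows and 10% FDR. Line comparisons used 6 libraries, the difference between lines and the controls all 12. The study's own test, Cuffdiff, was not repeated, since it needs reads. Correlations used 100000 permutations. The procedure was tested on simulated data. Positions are from GENCODE M21 and promoters from RefSeq. Alternatives were other pseudocounts, filters, eBayes settings, scalings, 1 model of 12 libraries, the replicate number as a block, 5% FDR and each library left out. The members, lists and the rule for naming genes (called members, the 10 highest, the 5 largest non-overlapping changes per line, partner chains, called list genes) were chosen with earlier results of these data known. One myelin marker is not reported here and was left out of its list. Python 3.11.15 was used for the rest.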

Additional observations from a re-analysis of the deposited data

Results flagged for a closer look

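These genes were singled out because their CKO effect differed between the lines in the interaction test of limma, and no collagen gene was among them. On the log2 scale the Dnmt1 effect minus the Dnmt3a effect was -0.66 for the collagen receptor Ddr1 (adjusted p = 0.0011) and -0.60 for the metalloproteinase Mmp15 (adjusted p = 0.092). The myelin markers had differences of -1.79 for Mbp, -2.08 for Mog and -2.02 for Mag, and of -2.24 for Mobp, -2.53 for Opalin, -2.15 for Mal and -1.76 for Cldn11. Among the markers of progenitors and astrocytes they were -0.64 for Gpr17, -0.86 for Sox10 and -0.21 for Slc1a2. Groups of 3 libraries are too small for the check of single outlying libraries.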

How the results depend on the processing

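The count of collagen genes called in the Dnmt1 line (3) was 1 with a minimum mean of 1 FPKM and 0 with no filter, at 5% FDR and with the replicate number as a block, and leaving out each library gave 0 to 2. It was 4 with median ratio or quantile scaling, which added Col9a2, and 3 with robust eBayes or 1 model of 12 libraries, with Col9a2 in place of Col27a1. For the average over both lines (3) it was 1 with the replicate block, at 5% FDR and without Dnmt3a Control replicate 3 and Dnmt3a CKO replicate 3 together, and 1 to 3 with each library left out. For the Dnmt3a line, the difference between the lines and the controls it was 0 throughout. Same-numbered libraries of a line did not deviate together over all rows tested (correlations from -0.079 to 0.035). This cannot exclude a pairing by litter or batch, which the labels do not give. Dnmt3a Control replicate 3 and Dnmt3a CKO replicate 3 shared high Xist and low choroid plexus markers. Of the other collagen pathway genes called in the Dnmt1 line (3), 5 were called with robust eBayes or quantile normalization, 6 with 1 model of 12 libraries, 1 with the replicate block and 2 to 3 with each library left out. For the difference between the lines (2) it was 4 with robust eBayes, median ratio or quantile scaling, 1 with a pseudocount of 1, no filter, eBayes without trend or 5% FDR, and 1 to 3 with libraries left out. The r between type I and III chains and leptomeningeal markers (0.47) became 0.877 with means of log2 values and 0.875 without Ptgds, and 0.285 to 0.602 with each library left out. The causes were not tested. Signs turned for the following differences, of which none was called. In the Dnmt1 line Col4a2 was 0.00635 and 0.015, by median ratio and quantile, and Col6a3 was -0.00308 by quantile. In the Dnmt3a line Col1a2 was -0.00504 by median ratio and Col6a3 0.00611 by quantile. With libraries left out, log2 differences in the Dnmt1 line ran from -0.0506 to 0.0223 for Col4a2, -0.13 to 0.0115 for Col25a1, -0.06 to 0.103 for Col6a2, -0.0278 to 0.143 for Col19a1, -0.0134 to 0.0876 for Col23a1 and -0.0404 to 0.09 for Col6a3. In the Dnmt3a line they ran from -0.174 to 0.174 for Col25a1, -0.0625 to 0.145 for Col1a2, -0.0418 to 0.0898 for Col6a2, -0.00541 to 0.179 for Col26a1, -0.362 to 0.0628 for Col5a1, -0.191 to 0.0201 for Col1a1, -0.0505 to 0.07 for Col4a5, -0.133 to 0.025 for Col27a1 and -0.111 to 0.0442 for Col6a3. The difference between the lines for Col9a2 ran from -0.0323 to 0.187. Of all alternatives for single genes, 757 kept the direction and the side of the threshold, 52 lost a call, 5 gained one and 34 turned sign. The number of fragments behind low FPKM values is not known.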
